A study of Homo sapiens with 18 samples.

Results

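The genes described here are 45 human genes whose products license origins of DNA replication, start the replicative helicase and copy DNA at the fork. They run from the 6 subunits of the origin recognition complex to the chromatin assembly factor that works behind the fork. Each gene was read from a probe set annotated to that gene alone, and each of the 45 had exactly 1 such probe set, out of 18417 genes in the whole table that have such a probe set. RNA came from NB4, an established human cell line from acute promyelocytic leukemia that matures towards granulocytes when given all-trans retinoic acid (ATRA). Cells labelled TG2 knockout, for the crosslinking enzyme transglutaminase 2 encoded by TGM2, were compared with wild-type NB4. Each line was left untreated (0 h), or given 1 µM ATRA for 48 h or 72 h, with 3 biological replicates in each of the 6 groups and 18 arrays in all. The labels name no other agent or allele. Their titles say knockout while the sample codes carry the letters KD, and they do not say how the gene was disrupted or whether the knockout cells were 1 clone.

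In G1 the origin recognition complex, with CDC6 and CDT1, loads the MCM2-7 ring onto DNA as an inactive helicase, a step called licensing. In S phase the CDC7-DBF4 kinase and cyclin-dependent kinases, among them the cyclin E kinase, recruit CDC45 and the GINS complex to turn the ring into a moving helicase. Primase, DNA polymerases, the PCNA clamp with its RFC loader, FEN1 and LIG1 then copy the strands and join the pieces. In cells that leave the cycle during terminal myeloid maturation, genes of this machinery are known to be transcribed less, and E2F factors are well-known regulators of many of them.

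All values are log2 signals as the authors deposited them, so a difference of 1 is a change of 2-fold, and levels are compared only within a gene. A gene was called changed at an adjusted p under 0.05, from limma over all 33297 probe sets, and errors of differences are standard errors. The targeted transcript was not absent from the knockout lines: TGM2 read 10.56 to 11.61 on the 6 knockout ATRA arrays and 12.06 to 12.54 on the 6 wild-type ATRA arrays, against 6.27 to 6.61 on the 6 untreated arrays of both lines. Averaged over the ATRA times the difference, knockout minus wild-type, was -1.22 ± 0.13 (adjusted p = 0.000486). In untreated wild-type cells 5 promyelocyte granule genes stood between the brightness percentiles 66.6 and 99.8 of all probe sets. The 13 measured markers of T, B, erythroid, fibroblast and epithelial cells lay between 14 and 68.7. After ATRA 5 of these 13 were called higher and 1 lower in knockout cells at 48 h, 3 and 1 in wild-type cells at 48 h, 4 and 2 in knockout cells at 72 h, and 4 and 1 in wild-type cells at 72 h. Their mean log2 level on an array was 6.04 to 6.22 after ATRA, against 5.92 to 5.99 untreated, and their part in the results was not tested. Of all probe sets, 19.3% to 23.1% were called higher and 19.2% to 21% lower in these comparisons. Most replication genes gave a bright signal: 44 of the 45 were in the brighter part of the table, and only DBF4, at percentile 29.9, was in the dimmer part.

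As deposited, most of the 45 replication genes were called lower after ATRA in both lines, but only 17 to 22 were after quantile normalization. At 48 h as deposited, 24 fell and 2 rose in knockout cells, where 19.9% of all probe sets were called lower and 21.5% higher. In wild-type cells at 48 h, 26 fell and 1 rose, against 19.6% and 19.3% of all probe sets. At 72 h, 24 fell and 1 rose in knockout cells (19.2% and 22.8% of all probe sets), and 29 fell and 1 rose in wild-type cells (21% and 23.1%). The members' median change at 48 h was -0.49 in knockout and -0.55 in wild-type cells, and at 72 h it was -0.63 in knockout and -0.64 in wild-type cells. Over all probe sets the median change lay between 0.10 and 0.14 in these 4 comparisons. Bright probe sets were called lower more often than dim ones: in the brighter part of the table the share was 33.2% in knockout and 31.8% in wild-type cells at 48 h, and 32.1% in knockout and 34.5% in wild-type cells at 72 h. The spread of log2 values within an array was also narrower after ATRA (SD 2.12 to 2.28) than without it (2.39 to 2.40), and its part in these changes was not tested. Quantile normalization, which makes the arrays' distributions equal, gave fewer calls both among the members and over all probe sets. At 48 h 18 members then fell and 2 rose in knockout cells (16% of all probe sets lower, 16.8% higher), and 17 fell and 4 rose in wild-type cells (15.5% lower, 16.7% higher). At 72 h 19 fell and 3 rose in knockout cells (15.8% lower, 16.4% higher), and 22 fell and 4 rose in wild-type cells (17% lower, 18.6% higher). The comparisons at 48 h and 72 h of a line share its untreated arrays. In bulk RNA, fewer cycling cells and less RNA of a gene per cell cannot be told apart.

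**Figure D1:**
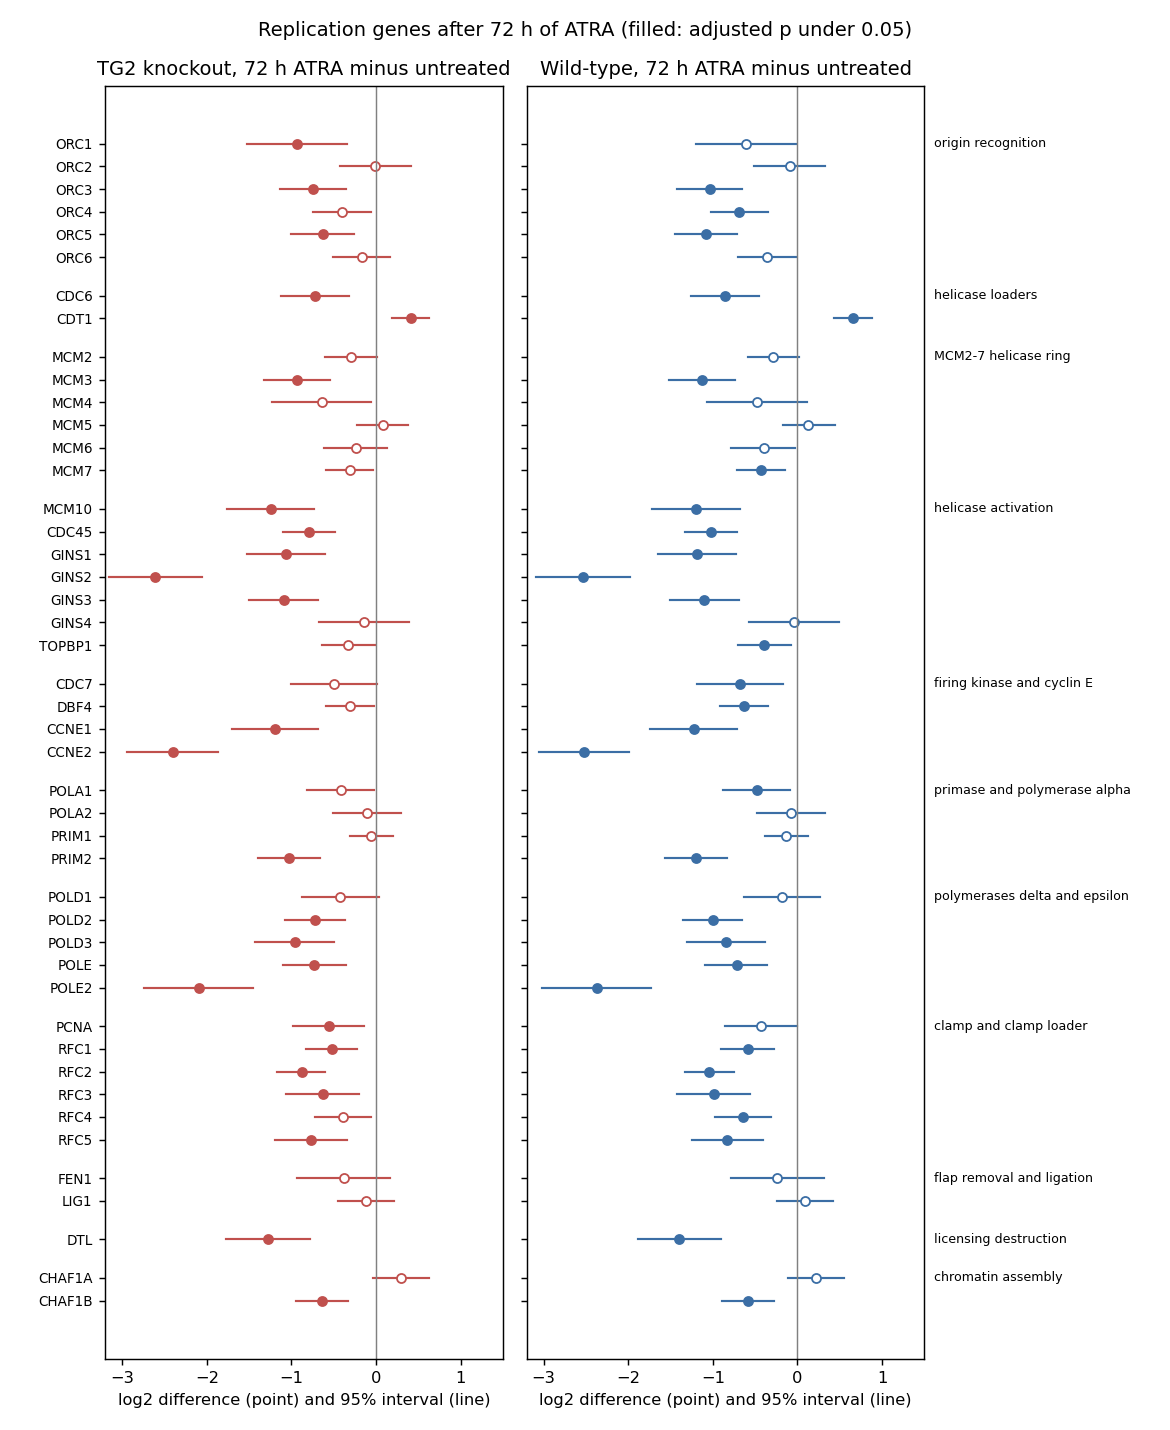
Log2 difference of each of the 45 genes between 72 h of ATRA and no treatment (x axis), with TG2 knockout cells on the left and wild-type cells on the right; points are differences, lines 95% intervals, and filled points passed an adjusted p of 0.05. GINS2, CCNE2 and POLE2 lie below -2 in both lines, most of the MCM2-7 ring has open points, and CDT1 is the gene with a filled point above 0.

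The genes did not move as 1 block. In all 4 comparisons with untreated cells, 22 genes fell: ORC3, ORC5, CDC6, MCM3, MCM10, CDC45, GINS1, GINS2, GINS3, CCNE1, CCNE2, PRIM2, POLD2, POLD3, POLE, POLE2, RFC1, RFC2, RFC3, RFC5, DTL and CHAF1B. Of these, ORC5, CDC6, MCM10, POLD3, POLE, RFC1, RFC3 and CHAF1B lost at least 1 of the 4 calls after quantile normalization, with the sign kept. In 1 to 3 of the 4 comparisons, 9 genes fell: ORC1, ORC4, MCM7, TOPBP1, CDC7, DBF4, POLA1, PCNA and RFC4. After quantile normalization ORC1, MCM7, TOPBP1, CDC7, POLA1, PCNA and RFC4 kept none of these calls, and ORC4 lost its calls at 48 h. As deposited, no call in either direction was made for 12: ORC2, ORC6, MCM2, MCM4, MCM5, MCM6, GINS4, POLA2, PRIM1, POLD1, FEN1 and LIG1. CDT1 rose in all 4 comparisons, and CHAF1A rose in knockout cells at 48 h. Whether the changes of any 2 members differ from each other was not tested.

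The promoters of these genes are shown because many share a sequence element that the choice of members did not use. RefSeq windows of 300 bases, 250 before an annotated start and 50 from it on (GRCh38.p14), matched 40 of the 45 genes and gave 49 windows, since 7 genes had several. For ORC1, PRIM2 and POLD2 no window lay at the outer start of the gene's annotated span. MCM4, MCM5, GINS4, CCNE2 and POLD3 had no match. Cores bound by E2F factors were searched as TTTGGCGC, TTTCGCGC, TTTCCCGC and TTTGGCGG on both strands. At least 1 of them was present in 24 of the 49 windows (49%), against 3.35% of 35116 windows of all genes. By core, TTTGGCGC was in 14.3% of members' windows and 0.652% of all, TTTCGCGC in 12.2% and 0.515%, TTTCCCGC in 20.4% and 1.63%, and TTTGGCGG in 16.3% and 0.652%. Matches of the cores can overlap each other. The CCAAT element was in 51% of members' windows against 34.6% of all windows, and TTTGAA, the core of the cell-cycle homology element of later cell-cycle genes, in 2.04% against 15.2%. A core was found for 17 of 27 matched genes that fell in wild-type cells at 72 h, for 6 of 12 that were not called and for CDT1, which rose. A match of letters describes these windows and is not a binding site. The windows of GINS2 and POLE2, which had the largest falls among the genes with a window, of CDC6 and CDT1, partners in loading that moved in opposite directions, and of FEN1, which was not called and whose window holds none of the cores, read as follows, 5′ to 3′ on the gene's strand, with the E2F cores in capitals.
GINS2, chr16:85688905-85689204, minus strand: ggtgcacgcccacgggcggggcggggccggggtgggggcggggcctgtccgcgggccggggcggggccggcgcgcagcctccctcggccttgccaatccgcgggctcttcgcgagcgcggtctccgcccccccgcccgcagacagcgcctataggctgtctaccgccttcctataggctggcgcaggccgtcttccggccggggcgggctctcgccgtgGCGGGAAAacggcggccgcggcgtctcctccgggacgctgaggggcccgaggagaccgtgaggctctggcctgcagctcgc
POLE2, chr14:49688165-49688464, minus strand: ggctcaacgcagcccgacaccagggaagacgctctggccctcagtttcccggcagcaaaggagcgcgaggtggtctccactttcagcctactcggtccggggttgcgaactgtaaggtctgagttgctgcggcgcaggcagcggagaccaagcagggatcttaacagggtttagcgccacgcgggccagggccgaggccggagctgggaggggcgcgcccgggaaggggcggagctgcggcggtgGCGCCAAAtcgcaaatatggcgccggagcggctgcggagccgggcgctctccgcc
CDC6, chr17:40287629-40287928, plus strand: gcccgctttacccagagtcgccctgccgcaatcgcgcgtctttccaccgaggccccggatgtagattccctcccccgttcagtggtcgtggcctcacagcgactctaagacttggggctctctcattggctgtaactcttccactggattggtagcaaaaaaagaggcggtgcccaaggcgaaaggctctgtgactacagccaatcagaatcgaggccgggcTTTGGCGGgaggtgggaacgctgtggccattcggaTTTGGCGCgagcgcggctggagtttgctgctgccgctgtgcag
CDT1, chr16:88803539-88803838, plus strand: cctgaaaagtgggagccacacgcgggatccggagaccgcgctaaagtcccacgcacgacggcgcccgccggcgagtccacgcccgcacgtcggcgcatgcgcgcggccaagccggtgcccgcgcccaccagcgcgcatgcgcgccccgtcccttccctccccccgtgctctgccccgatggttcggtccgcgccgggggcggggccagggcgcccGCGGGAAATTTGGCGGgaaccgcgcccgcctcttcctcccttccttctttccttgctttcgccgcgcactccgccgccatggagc
FEN1, chr11:61792661-61792960, plus strand: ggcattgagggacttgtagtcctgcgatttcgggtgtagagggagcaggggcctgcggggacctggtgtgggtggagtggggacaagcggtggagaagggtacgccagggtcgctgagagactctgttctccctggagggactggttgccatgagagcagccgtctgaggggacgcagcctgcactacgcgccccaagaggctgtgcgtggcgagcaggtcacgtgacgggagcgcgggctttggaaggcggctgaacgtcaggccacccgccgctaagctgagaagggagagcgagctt

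Among the subunits of the origin recognition complex, which marks origins and loads the helicase, ORC3 and ORC5 fell in all 4 comparisons while ORC2 was not called in any. ORC5, an ATP-binding subunit, read 9.37, 9.51 and 9.51 on the untreated knockout arrays, 8.96, 8.21 and 8.92 at 48 h and 8.65, 8.89 and 8.97 at 72 h. Wild-type arrays read 9.50, 9.41 and 9.50 untreated, 8.97, 8.46 and 8.52 at 48 h, and 8.30, 8.39 and 8.49 at 72 h. Every ATRA array thus lay below every untreated array of its line. The change at 72 h was -0.63 ± 0.17 in knockout cells (adjusted p = 0.00904) and -1.08 ± 0.17 in wild-type cells (adjusted p = 0.000129). After quantile normalization the knockout call at 72 h was lost (-0.35, adjusted p = 0.0905). ORC3, which helps hold the complex together, fell by 0.74 in knockout cells and by 1.03 in wild-type cells on the log2 scale at 72 h (adjusted p = 0.0041 in knockout and 0.000279 in wild-type cells). ORC1, the subunit whose protein level cycles in human cells, fell in knockout cells at 72 h (-0.93 ± 0.28, adjusted p = 0.0135), a call lost after quantile normalization. Its other differences, of -0.62 to -0.39, were not called. ORC4 fell in both lines at 48 h and in wild-type cells at 72 h (-0.69), with a difference of -0.40 and an adjusted p of 0.0543 in knockout cells at 72 h. Quantile normalization ended the ORC4 calls at 48 h. ORC2 had differences of -0.09 to 0.07 from untreated cells and ORC6, the smallest subunit, of -0.36 to -0.13, with no call.

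The helicase loaders moved apart. CDC6, the ATPase that joins the origin complex in G1, gave 10.13, 10.10 and 10.01 in untreated knockout cells, 9.66, 9.40 and 9.23 at 48 h and 9.26, 9.70 and 9.11 at 72 h. In wild-type cells CDC6 gave 10.04, 9.98 and 10.04 untreated, 9.84, 9.41 and 9.08 at 48 h, and 9.16, 9.45 and 8.87 at 72 h. No ATRA array reached its untreated range, and at 72 h CDC6 was lower by 1.65-fold in knockout cells (adjusted p = 0.00622) and by 1.82-fold in wild-type cells (adjusted p = 0.0017). The CDC6 calls at 48 h were less stable: quantile normalization ended them in knockout (adjusted p = 0.0893) and wild-type cells (adjusted p = 0.166), and the wild-type call was also lost without any 1 of the untreated arrays or without replicate 2 or 3 at 48 h (adjusted p of 0.0511 to 0.13). CDT1, which brings the MCM ring to the origin, did the reverse: knockout arrays read 8.67, 8.90 and 8.80 untreated, 9.22, 9.14 and 9.10 at 48 h, and 9.27, 9.23 and 9.10 at 72 h. CDT1 in wild-type cells read 8.76, 8.71 and 8.77 untreated, 9.53, 9.14 and 9.34 at 48 h, and 9.46, 9.44 and 9.31 at 72 h. All 12 ATRA arrays stood above the untreated arrays of their line, which was true of no other member. The rise at 48 h was 0.36 ± 0.11 in knockout (adjusted p = 0.0117) and 0.59 ± 0.11 in wild-type cells (adjusted p = 0.000349), and at 72 h it was 0.41 ± 0.11 in knockout (adjusted p = 0.00547) and 0.66 ± 0.11 in wild-type cells (adjusted p = 0.000116). When each array was centred on its median the call in knockout cells at 48 h was lost (0.28, adjusted p = 0.0615), as it was without the untreated knockout replicate 1 (0.30, adjusted p = 0.0622). DTL, the substrate receptor of the ubiquitin ligase that marks CDT1 for destruction in S phase, fell. Its knockout arrays read 10.33, 10.19 and 10.29 untreated, 9.37, 8.69 and 8.87 at 48 h, and 8.84, 9.40 and 8.74 at 72 h. DTL in wild-type cells read 10.27, 10.32 and 10.28 untreated, 9.46, 9.17 and 8.53 at 48 h, and 8.99, 9.19 and 8.50 at 72 h. The highest ATRA array was thus below the lowest untreated array, and DTL was 2.42-fold lower in knockout cells (adjusted p = 0.000473) and 2.63-fold lower in wild-type cells (adjusted p = 0.000184) at 72 h.

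Of the 6 subunits of the MCM2-7 ring, the core of the helicase, MCM3 alone fell in all 4 comparisons, and MCM7 fell in wild-type cells at 72 h only. MCM3 in knockout cells read 10.67, 10.70 and 10.53 untreated, 9.94, 9.80 and 9.46 at 48 h, and 9.59, 10.02 and 9.50 at 72 h. Wild-type MCM3 values were 10.61, 10.79 and 10.76 untreated, 10.11, 9.92 and 9.43 at 48 h, and 9.52, 9.91 and 9.34 at 72 h. The ATRA and untreated arrays did not overlap, and the change at 72 h was -0.93 ± 0.19 in knockout cells (adjusted p = 0.000898) and -1.13 ± 0.19 in wild-type cells (adjusted p = 0.000146). MCM4 had differences of a size that the spread between replicates did not support: knockout arrays read 10.27, 9.69 and 9.58 at 48 h and 9.27, 10.19 and 9.39 at 72 h, against 10.21, 10.22 and 10.35 untreated. Wild-type arrays read 10.21, 9.93 and 9.15 at 48 h and 9.81, 10.13 and 9.29 at 72 h, against 10.19, 10.22 and 10.26 untreated. Some ATRA arrays stood within or close to the untreated range and others well below it, and the adjusted p of MCM4 was 0.0725 in knockout and 0.171 in wild-type cells at 72 h. MCM2 had differences of -0.29 to -0.14 and MCM6 of -0.40 to -0.21, with no call. MCM7 was called in wild-type cells at 72 h (-0.43 ± 0.13, adjusted p = 0.0148), with differences of -0.31 to -0.24 and no call elsewhere. The MCM7 call was lost after quantile normalization. MCM5 had differences of -0.02 to 0.24 and was not called as deposited, but was called higher after quantile normalization in wild-type cells at both times and in knockout cells at 72 h.

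Most factors that activate the helicase fell. Of 7, 6 fell in knockout and 6 in wild-type cells at 48 h, and 5 fell in knockout and 6 in wild-type cells at 72 h. Of all probe sets, 19.2% to 21% were called lower in these comparisons. GINS2, a subunit of the 4-part GINS complex that holds the active helicase together, was read by probe set 8003204. Its knockout arrays read 10.80, 10.68 and 10.73 untreated, 8.70, 9.12 and 8.12 at 48 h, and 7.82, 8.66 and 7.90 at 72 h. Wild-type arrays gave 10.71, 10.68 and 10.76 untreated, 8.59, 8.90 and 7.96 at 48 h, and 8.0, 8.45 and 8.10 at 72 h. Each ATRA array was over 1.5 units below the untreated arrays. At 72 h GINS2 was 6.11-fold lower in knockout cells (-2.61 ± 0.26, adjusted p = 1.46e-06) and 5.79-fold lower in wild-type cells (-2.53 ± 0.26, adjusted p = 1.46e-06). GINS1 changed by -1.06 in knockout and -1.19 in wild-type cells at 72 h, and GINS3 by -1.09 in knockout and -1.10 in wild-type cells, all called. GINS4, the remaining subunit, was not called in any comparison: at 72 h the difference was -0.14 in knockout (95% interval -0.67 to 0.39) and -0.04 in wild-type cells (-0.57 to 0.49). CDC45, the helicase's other cofactor, fell by 0.79 in knockout cells and by 1.02 in wild-type cells on the log2 scale at 72 h. MCM10, which takes part in helicase activation after CDC45 and GINS have joined, was 2.37-fold lower in knockout and 2.3-fold lower in wild-type cells. TOPBP1, the scaffold that helps bring GINS to the origin, fell by 0.42 in each line at 48 h and by 0.39 in wild-type cells at 72 h. In knockout cells at 72 h TOPBP1 had a difference of -0.33 with an adjusted p of 0.0867. Quantile normalization ended every TOPBP1 call.

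Of the 4 S-phase kinase and cyclin E genes, 2 fell in knockout and 4 in wild-type cells at 72 h. Of all probe sets, 19.2% fell in knockout and 21% in wild-type cells at that time. CCNE2, a cyclin E that activates CDK2 at the start of S phase, was read by probe set 8151871. In knockout cells it read 8.26, 8.39 and 8.34 untreated, 5.93, 5.52 and 5.62 at 48 h, and 6.17, 6.26 and 5.35 at 72 h. In wild-type cells CCNE2 read 8.59, 8.60 and 8.65 untreated, 6.55, 6.18 and 5.63 at 48 h, and 6.08, 6.50 and 5.70 at 72 h. The ATRA arrays lay far under the untreated ones, and the drop at 48 h was 6.23-fold in knockout (adjusted p = 8.98e-07) and 5.63-fold in wild-type cells (adjusted p = 1.43e-06). CCNE1, the other cyclin E, was lower by 2.28-fold in knockout and 2.33-fold in wild-type cells at 72 h (adjusted p = 0.00108 in knockout and 0.000757 in wild-type cells). CDC7, the kinase that acts on the loaded MCM ring, fell in wild-type cells at 72 h (-0.68 ± 0.24, adjusted p = 0.0321), a call lost after quantile normalization. Its other differences, of -0.62 to -0.36, were not called. DBF4, the activating subunit of CDC7, fell in wild-type cells at 48 h (-0.38 ± 0.13, adjusted p = 0.0356) and 72 h (-0.63 ± 0.13, adjusted p = 0.00127). The call at 48 h was lost without any 1 of the untreated wild-type arrays or without replicate 2 or 3 at 48 h (adjusted p of 0.0779 to 0.104). In knockout cells DBF4 differed from untreated cells by 0.03 at 48 h and by -0.31 at 72 h, without a call. After quantile normalization (-0.45, adjusted p = 0.0224) or without replicate 2 (-0.40, adjusted p = 0.0394) DBF4 was called lower in knockout cells at 72 h.

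At the fork, the polymerase subunits also split. POLE2, the second subunit of the leading-strand polymerase epsilon and part of the helicase assembly, was read by probe set 7978846. Knockout arrays gave 8.74, 8.78 and 8.79 untreated, 7.12, 6.74 and 6.36 at 48 h, and 6.29, 7.57 and 6.17 at 72 h. Wild-type arrays gave 8.87, 8.79 and 8.87 untreated, 7.16, 6.61 and 6.24 at 48 h, and 6.38, 6.76 and 6.27 at 72 h. All ATRA arrays were more than 1 unit below the untreated ones, and replicate 2 of the knockout cells at 72 h was the highest of them. The change at 72 h was 4.27-fold lower in knockout (adjusted p = 5.64e-05) and 5.18-fold lower in wild-type cells (adjusted p = 1.3e-05). The catalytic subunit POLE fell by 0.73 in knockout cells and by 0.72 in wild-type cells on the log2 scale. For polymerase delta, which extends the lagging strand, POLD2 and POLD3 fell at each time in each line. POLD2, its second subunit, read 11.01, 10.98 and 10.89 in untreated knockout cells, 10.45, 10.32 and 10.22 at 48 h, and 10.10, 10.45 and 10.16 at 72 h. The wild-type POLD2 values were 10.87, 10.97 and 10.91 untreated, 10.36, 10.27 and 9.88 at 48 h, and 9.87, 10.34 and 9.53 at 72 h. No ATRA value reached the untreated range, with changes at 72 h of -0.72 ± 0.17 in knockout (adjusted p = 0.0026) and -1.0 ± 0.17 in wild-type cells (adjusted p = 0.000157). POLD1, the catalytic subunit, was not called, with differences of -0.42 to 0.03.

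Within the primase and polymerase alpha complex, which lays the primers, PRIM2 fell in all 4 comparisons while its partner PRIM1 was called in none. PRIM2, the regulatory subunit of primase, gave 7.88, 7.90 and 7.98 in untreated knockout cells, 7.09, 6.72 and 6.88 at 48 h and 6.73, 7.25 and 6.68 at 72 h. In wild-type cells it gave 7.96, 7.93 and 7.88 untreated, 7.34, 6.95 and 6.88 at 48 h, and 6.88, 6.90 and 6.39 at 72 h. The groups did not overlap, and PRIM2 was lower by 2.05-fold in knockout (adjusted p = 0.000219) and 2.30-fold in wild-type cells (adjusted p = 4.61e-05) at 72 h. PRIM1, the catalytic subunit of primase, had differences of -0.13 to -0.02. POLA1, the polymerase of the complex, was called in wild-type cells at 72 h alone (-0.48 ± 0.19, adjusted p = 0.0444), a call lost after quantile normalization. POLA2, its accessory subunit, had differences of -0.11 to 0.02 with no call.

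As deposited, most clamp loader subunits fell in all 4 comparisons, and the clamp in 1; after quantile normalization only RFC2 and RFC5 of the loader kept all 4 calls and the clamp kept none. RFC2, a subunit of the RFC loader that opens PCNA rings, read 10.62, 10.69 and 10.71 in untreated knockout cells, 9.81, 9.37 and 9.94 at 48 h and 9.72, 9.95 and 9.70 at 72 h. Its wild-type values were 10.71, 10.71 and 10.70 untreated, 10.11, 9.75 and 9.69 at 48 h, and 9.57, 9.70 and 9.73 at 72 h. Every ATRA array lay at least 0.5 below the untreated arrays, and at 72 h the change was -0.88 ± 0.14 in knockout (adjusted p = 9.41e-05) and -1.04 ± 0.14 in wild-type cells (adjusted p = 1.55e-05). RFC1, RFC3 and RFC5, also loader subunits, fell in all 4 comparisons, by 0.49 to 0.99 on the log2 scale. Quantile normalization ended the RFC1 call in all 4 and the RFC3 call in knockout cells at 72 h. RFC4 fell in wild-type cells at both times and had adjusted p values of 0.0502 at 48 h and 0.057 at 72 h in knockout cells, and its wild-type calls were lost after quantile normalization. PCNA, the sliding clamp that holds polymerases on DNA, read 10.64, 10.38 and 10.13 at 48 h and 10.11, 10.64 and 9.90 at 72 h in knockout cells, against 10.75, 10.78 and 10.80 untreated. In wild-type cells PCNA read 10.76, 10.50 and 10.23 at 48 h and 10.59, 10.66 and 9.94 at 72 h, against 10.84, 10.82 and 10.83 untreated. All 12 ATRA values were lower than those of the line's untreated arrays, yet the spread among them was wide, and PCNA passed the test only in knockout cells at 72 h (-0.56 ± 0.20, adjusted p = 0.0341), a call lost after quantile normalization.

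The enzymes that finish lagging-strand pieces were not called. FEN1, the nuclease that trims flaps, read 9.72, 9.82 and 9.03 at 48 h and 8.94, 9.78 and 8.99 at 72 h in knockout cells, against 9.70, 9.66 and 9.49 untreated. In wild-type cells FEN1 read 9.76, 9.69 and 9.14 at 48 h and 9.47, 9.78 and 8.88 at 72 h, against 9.59, 9.66 and 9.60 untreated. On 6 of the 12 ATRA arrays FEN1 was above all untreated arrays of its line and on the other 6 below all of them. The mean difference at 72 h was -0.38 ± 0.26 in knockout cells (95% interval -0.93 to 0.17, adjusted p = 0.247) and -0.24 ± 0.26 in wild-type cells (95% interval -0.79 to 0.31, adjusted p = 0.468). LIG1, the ligase that seals the nicks, had differences of -0.12 to 0.22 and was not called as deposited, but was called higher in wild-type cells after quantile normalization at both times.

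**Figure D2:**
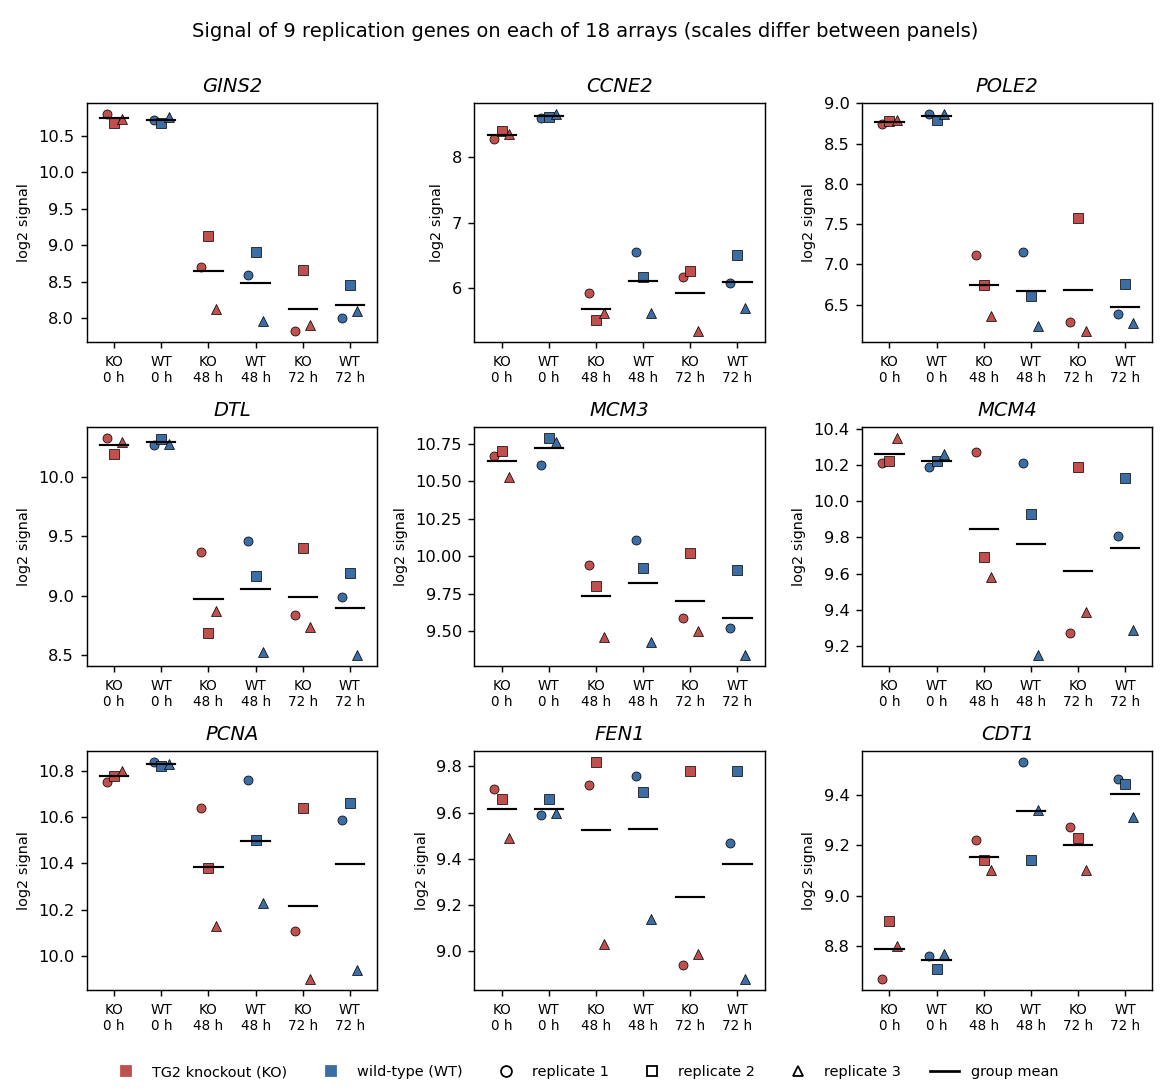
Log2 signal of 9 genes on each of the 18 arrays (y axis, scales differ), by line and hours of ATRA (x axis), with knockout left of wild-type at each time, symbols for replicates and bars for group means. GINS2, CCNE2, POLE2, DTL and MCM3 show no overlap between ATRA and untreated arrays, MCM4 and FEN1 spread widely after ATRA, and CDT1 is higher on every ATRA array.

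The subunits of chromatin assembly factor 1, which places new histones behind the fork, also moved apart. CHAF1B read 9.02, 8.95 and 8.99 in untreated knockout cells, 8.64, 8.61 and 8.25 at 48 h and 8.25, 8.58 and 8.22 at 72 h. Its wild-type values were 8.94, 8.89 and 8.99 untreated, 8.67, 8.24 and 8.26 at 48 h, and 8.42, 8.49 and 8.16 at 72 h. CHAF1B was below its untreated range on every ATRA array, with changes at 72 h of -0.64 ± 0.14 in knockout (adjusted p = 0.00229) and -0.58 ± 0.14 in wild-type cells (adjusted p = 0.00382), but no call was left in either line after quantile normalization. CHAF1A, the large subunit, read 8.72, 8.56 and 8.51 in untreated knockout cells, 9.24, 9.19 and 8.85 at 48 h and 8.92, 9.10 and 8.66 at 72 h. In wild-type cells CHAF1A gave 8.60, 8.65 and 8.68 untreated, 9.28, 8.99 and 8.68 at 48 h, and 8.81, 9.05 and 8.73 at 72 h. Only in knockout cells at 48 h did it pass the test (0.50 ± 0.16, adjusted p = 0.0178), a call lost when arrays were centred on their medians (0.42, adjusted p = 0.0561) or without untreated replicate 2 or 3 or replicate 1 or 2 at 48 h (adjusted p of 0.0545 to 0.0684), and wild-type arrays at 48 h touched the untreated range. After quantile normalization CHAF1A was called higher in all 4 comparisons.

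ATRA replicates varied more among themselves than untreated ones. On the untreated arrays the mean over the 45 genes stayed within 0.03 of the line's mean. At 48 h its difference from untreated was -0.42, -0.74 and -0.67 in knockout replicates 1, 2 and 3, and -0.29, -0.58 and -0.85 in wild-type replicates 1, 2 and 3. The 72 h arrays gave -0.82, -0.34 and -0.82 in knockout and -0.70, -0.53 and -0.95 in wild-type cells. Replicate 2 of the knockout cells at 72 h and replicate 1 of either line at 48 h had the smallest shifts. These 3 arrays also scored low among the ATRA arrays on the first principal component of all probe sets (57.1% of the variance), at 30.0, 31.2 and 17.5, with the third knockout array at 48 h at 31.1 and the other ATRA arrays at 46.3 to 56.6; untreated arrays scored -89.9 to -84.7. The part of this array-wide position in the replication genes was not tested. Without knockout replicate 2 at 72 h, 34 of the 45 genes were called lower there instead of 24, and 19.1% instead of 19.2% of all probe sets. Without wild-type replicate 1 at 48 h 29 genes (20.2% of all probe sets) were called lower, and without replicate 3, 19 (17.1%), in place of 26 (19.6%). Over the genes, the median range across the 12 ATRA arrays was 0.86, and across the 6 untreated arrays it was 0.16. On all 12 ATRA arrays, 26 of the genes were below the line's untreated arrays. The share of all probe sets below in this way was not counted, so this number has no background beside it.

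**Figure D3:**
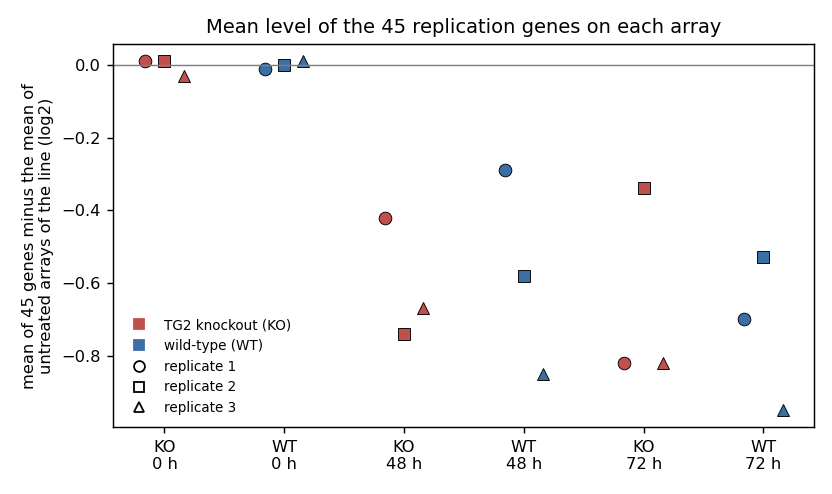
Mean log2 level of the 45 genes on each array minus the mean of the untreated arrays of its line (y axis), by line and hours of ATRA (x axis), knockout left of wild-type at each time. Untreated arrays lie within 0.03 of 0, and ATRA arrays between -0.95 and -0.29.

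No replication gene was called different between 72 h and 48 h of ATRA. In this comparison limma called 0 members in knockout cells (0% of all probe sets lower, 0% higher) and 0 in wild-type cells (0% and 0%), and 1 member in knockout and 0 in wild-type cells had an unadjusted p under 0.05. The members' median difference of 72 h minus 48 h was -0.04 in knockout and -0.14 in wild-type cells. It was negative for 27 of 45 genes in knockout and for 43 of 45 in wild-type cells. The members share their arrays, so these counts are not independent observations.

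The TG2 knockout made no called difference to any of the 45 genes. In untreated cells 0 were called in either direction by limma (0.003% of all probe sets lower and 0.003% higher), and 0 had an unadjusted p under 0.05. At 48 h 0 were called (0.012% lower, 0.00901% higher) and 1 had an unadjusted p under 0.05; at 72 h 0 were called (0.0511% lower, 0.045% higher) and 3 did. Over the mean of both ATRA times 0 were called (0.219% lower, 0.15% higher) and 2 did. The ATRA responses of the lines, knockout minus wild-type, gave 0 calls at 48 h (0% lower, 0.003% higher of all probe sets), with 1 member at an unadjusted p under 0.05. At 72 h they gave 0 calls (0% and 0%) and 0 such members. A missed threshold does not show that the lines were alike: the 95% intervals of the difference at the mean of the ATRA times ran from as low as -0.67 to as high as 0.59 over the 45 genes.

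DBF4, the only member in the dimmer part of the table, had the smallest p between the lines. Its group means stood at brightness percentiles 22.1 to 34.9 of all probe sets, and no detection measure was used. In knockout cells DBF4 read 5.31, 5.15 and 5.35 untreated, 5.51, 5.19 and 5.19 at 48 h, and 5.04, 5.14 and 4.71 at 72 h. In wild-type cells DBF4 read 5.31, 5.33 and 5.29 untreated, 5.04, 4.90 and 4.86 at 48 h, and 4.66, 4.73 and 4.64 at 72 h. All knockout arrays were above all wild-type arrays at 48 h, and at 72 h the ranges of the lines overlapped slightly. Over both ATRA times the difference was 0.32 ± 0.09 (95% interval 0.12 to 0.53, unadjusted p = 0.00343), which did not pass over all probe sets (adjusted p = 0.181). The difference of the 48 h responses was 0.40 ± 0.19 with an adjusted p of 1. CDT1, whose arrays are given above, was higher after ATRA in both lines and its difference, knockout minus wild-type, was -0.19 ± 0.07 (adjusted p = 0.348) over both times. POLD2 differed by 0.24 ± 0.12 (adjusted p = 0.498), and at 72 h ORC3 and ORC5 each differed by 0.44 (adjusted p = 0.38 for ORC3 and 0.348 for ORC5), none of them called. The untreated knockout and wild-type arrays did not overlap for 9 of the 45 genes, and the share of all probe sets was not counted. Among these 9, CCNE2 was lower in knockout cells, with a mean difference of -0.28. With the spread pooled over all 6 groups its adjusted p was 1, and in a fit of the untreated arrays alone it was 0.0471, where 0.853% of all probe sets were called.

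**Figure D4:**
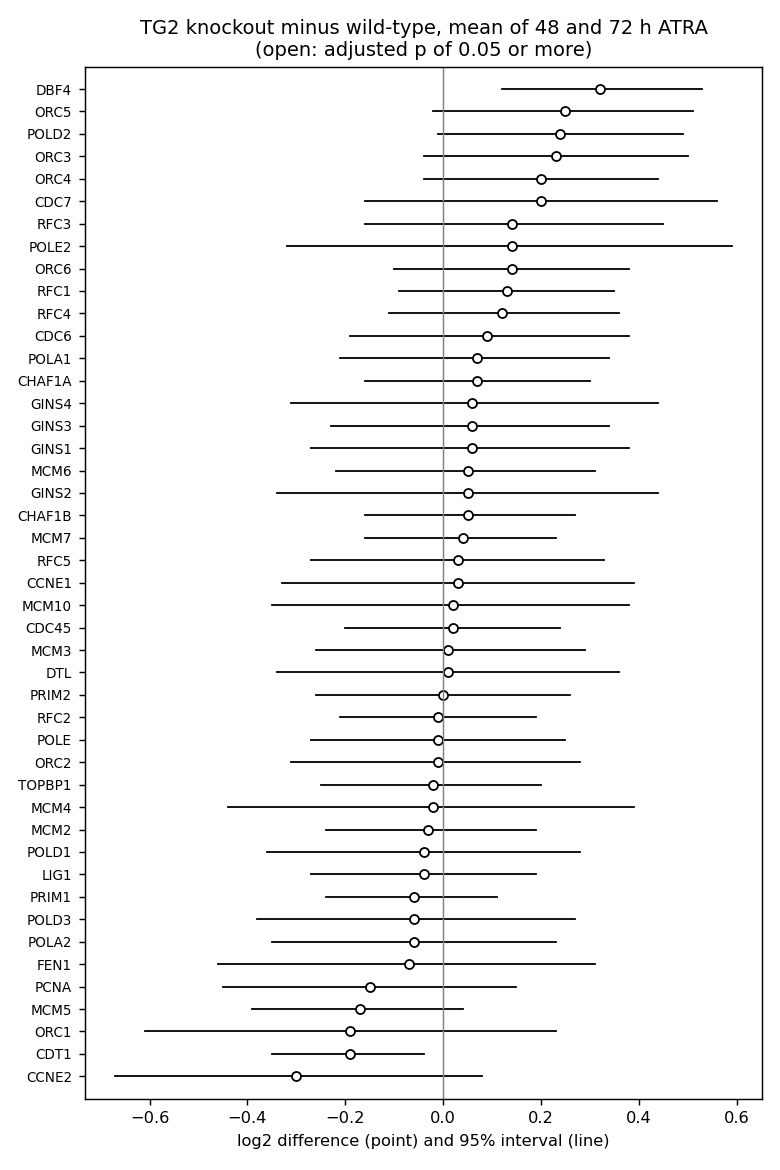
Difference between TG2 knockout and wild-type cells for each of the 45 genes, averaged over 48 h and 72 h of ATRA (x axis, log2), with 95% intervals as lines; all points are open since none passed an adjusted p of 0.05. DBF4 at 0.32 and CCNE2 at -0.30 are the ends of the range.

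Related genes outside the 45 also held genes that fell and genes that were not called. Of 30 further replication factors, 18 fell and 1 rose in knockout and 18 fell and 2 rose in wild-type cells at 48 h; at 72 h 18 fell and 1 rose in knockout and 21 fell and 1 rose in wild-type cells. After quantile normalization 13 fell and 3 rose in knockout and 11 fell and 3 rose in wild-type cells at 48 h, and 13 fell and 2 rose in knockout and 15 fell and 3 rose in wild-type cells at 72 h. Of all probe sets, 19.2% to 21% were called lower and 19.3% to 23.1% higher as deposited. After quantile normalization these shares were 15.5% to 17% lower and 16.4% to 18.6% higher. Geminin (GMNN), the protein that holds CDT1 inactive, fell by 1.15 in knockout cells and by 1.31 in wild-type cells on the log2 scale at 72 h. MCM8, an MCM relative that acts in recombination repair, fell by 1.87 in knockout and by 1.89 in wild-type cells. TICRR, which helps load CDC45, fell by 1.81 in knockout and by 1.54 in wild-type cells. DSCC1, a subunit of an alternative clamp loader, fell by 1.57 in knockout and by 1.69 in wild-type cells. POLD4, the small subunit of polymerase delta, rose instead, by 0.74 ± 0.13 in knockout (adjusted p = 0.000354) and 1.14 ± 0.13 in wild-type cells (adjusted p = 4.68e-06), and CHTF18, another subunit of the alternative loader, rose in wild-type cells at 48 h (0.33). The RPA subunits, which coat unwound strands, were not called: RPA1, RPA2 and RPA3 had differences of -0.33 to 0.04 over the 4 comparisons with untreated cells.

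The E2F, DP and RB families, which control transcription of many replication genes, also held members that fell. Of 13 such genes, 9 fell and 0 rose in knockout and 7 fell and 0 rose in wild-type cells at 48 h; at 72 h 9 fell and 1 rose in knockout and 8 fell and 0 rose in wild-type cells. Quantile normalization gave 8 lower in knockout and 7 in wild-type cells at 48 h, and 6 lower in knockout and 6 in wild-type cells at 72 h. Under it 1 gene, not E2F7, was called higher in knockout cells at 72 h. E2F1, an activator of S-phase genes, fell at 72 h in knockout (-0.95 ± 0.15, adjusted p = 0.000118) and wild-type cells (-0.69 ± 0.15, adjusted p = 0.00143). E2F8, a repressor, had called changes of -1.59 in knockout and -1.61 in wild-type cells. TFDP1, a DNA-binding partner of many E2F factors, had called changes of -1.03 in knockout and -1.16 in wild-type cells. E2F5, a repressor-class member, had called changes of -2.05 in knockout and -3.18 in wild-type cells. E2F7, the other atypical repressor, rose in knockout cells at 72 h (0.31 ± 0.10, adjusted p = 0.0259), a call lost after quantile normalization (0.18, adjusted p = 0.199). Of 8 measured checkpoint genes of S phase, 5 fell in knockout and 6 in wild-type cells at 48 h, and 6 fell in each line at 72 h. Quantile normalization gave 2 lower in knockout and 4 in wild-type cells at 48 h, and 3 in knockout and 5 in wild-type cells at 72 h. Beside the counts of both lists, 19.2% to 21% of all probe sets were called lower and 19.3% to 23.1% higher as deposited. After quantile normalization the shares were 15.5% to 17% lower and 16.4% to 18.6% higher. The checkpoint kinase ATR fell by 0.94 in knockout cells and by 1.24 in wild-type cells at 72 h. CDC25A, the phosphatase that activates CDK2, fell by 1.02 in knockout and by 1.22 in wild-type cells.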

How the data were processed

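RNA of 18 NB4 samples was labelled with biotin and hybridised to Affymetrix whole-transcript arrays, per the labels. The authors deposited 1 log2 value per probe set and array. Their log base was read from the range of 0.73 to 13.56; how the authors corrected, normalized and summarized the probes is not given in the sources used here. Medians per array are 6.12 to 6.26, and the values were used as they stand. Precision is limited by the number of arrays, and no detection call entered. Of 33297 probe sets, 19460 carry exactly 1 gene in the platform annotation, 1754 several and 12083 none.

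Using limma 3.58.1 (R 4.3.3), group means were estimated from the 18 arrays together, and eBayes moderated the variances along a trend with the mean. Benjamini-Hochberg adjustment ran over the 33297 probe sets of each contrast, tests were 2-sided, and calls were made under 0.05. The method was tested on simulated data in which a probe set had the same spread in every group. In the real data the median SD of a probe set was 0.0757 to 0.0985 in untreated groups and 0.215 to 0.243 after ATRA. The simulation therefore does not show how the fit behaves with unequal spreads. Groups come from the labels, which give no batch or date. P-values measure the spread between the labels' biological replicates, for which no separate culture is described. Same-numbered arrays of the lines deviated together at 72 h (r of 0.103, 0.16 and 0.138 across probe sets), not for each number at 48 h or untreated, so the replicate number was tried as a block. Other alternatives were quantile normalization, median centring, brighter or single-gene probe sets only, eBayes without trend or robust, group weights, the mean of a gene's probe sets, only the compared groups, and leaving out each array.

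The member genes, their roles and the further lists were chosen with earlier results of these data known. Values on every array are given for the called gene with the largest change in each role (wild-type cells, 72 h), or the smallest p where none was called, for members called higher, and for the 3 smallest p values between the lines. MCM4 and PCNA were added after their values were seen, as were examples from the further lists. Promoters are from RefSeq, GRCh38.p14.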

Additional observations from a re-analysis of the deposited data

How the results depend on the processing

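Precision rests on 3 arrays per group and a common spread, while ATRA arrays varied more than untreated ones; no detection measure was used. After quantile normalization, in wild-type cells 17 genes were called lower at 48 h in place of 26, and 4 (CDT1, MCM5, LIG1 and CHAF1A) higher at 48 h and at 72 h in place of 1. In knockout cells 3 were called higher at 72 h in place of 1. The members' median at 48 h was -0.22 in place of -0.49 in knockout and -0.32 in place of -0.55 in wild-type cells. At 72 h the median was -0.36 in place of -0.63 in knockout and -0.43 in place of -0.64 in wild-type cells. Under quantile normalization FEN1, uncalled throughout, turned from negative to 0.18 in knockout and 0.19 in wild-type cells at 48 h. In wild-type cells at 72 h it turned to 0.06. Other members also changed sign: ORC6, MCM2, MCM6 and PRIM1 in wild-type cells at 48 h. At 72 h in wild-type cells ORC2, GINS4, POLA2, PRIM1 and POLD1 did so. In knockout cells ORC6, MCM5, GINS4, DBF4, POLA2, PRIM1 and POLD1 changed sign at 48 h. ORC2, ORC6, GINS4, POLA2, PRIM1 and LIG1 did so at 72 h. The cause of these changes was not tested. Centring arrays on their medians left 0 genes called higher in knockout cells at 48 h in place of 2. The replicate block and the group weights each gave 2 genes higher in wild-type cells at 48 h (CHAF1A added), and the block changed no count between the lines. Fitting the compared groups alone called 1 gene, CCNE2, lower in untreated knockout cells. Leaving out 1 array at a time gave 19 to 29 genes lower at 48 h and 25 to 29 at 72 h in wild-type cells, and 21 to 24 at 48 h and 21 to 34 at 72 h in knockout cells, where group weights gave 31. Genes called higher at 48 h numbered 1 to 2 in either line. FEN1 then ranged from -0.44 to 0.01 in wild-type cells at 72 h, above 0 without replicate 3, and from -0.24 to 0.15 in knockout cells at 48 h, above 0 without replicate 3. The members that lost a call after quantile normalization are named above. Calls lost or gained under the other alternatives are given for some genes only. GINS2, CCNE2, POLE2, DTL, MCM3, PRIM2 and RFC2 kept their calls and directions under every alternative run in the 4 comparisons with untreated cells. No gene was called between the lines in any ATRA comparison or difference of response under any alternative run.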
